A study of Nicotiana tabacum with 18 samples.

Results

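In the middle leaves of the tobacco hybrid G70×GDH11, 59 of the 69500 genes in the table were listed far below both parents. These genes were chosen by their FPKM in the G70 cross, so their low level in that hybrid is how they were found and is described without a test. FPKM is a gene's fragment count divided by the length of its transcript and by the library's total of mapped fragments, up to a constant. The highest FPKM in the 3 hybrid libraries had to be below 0.5 times the lowest FPKM in the 6 parental libraries. The lowest parental FPKM had to be at least 0.5. In all, 31794 genes reached that parental floor, and the 59 genes were 0.186% of them. Most of the 59 were listed at or near 0 in G70×GDH11, and in a second hybrid, K326×GDH11, whose libraries had no part in the choice, their median level was 53.6% of the parental mean.

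The study compared leaves of 2 hybrids with those of their parents to look for genes behind a higher K+ content in hybrid leaves. The G70 cross comprised the hybrid G70×GDH11 (H), its female parent G70 (HP1) and its male parent GDH11 (HP2). The K326 cross comprised the hybrid K326×GDH11 (L), its female parent K326 (LP1) and GDH11 again (LP2), sampled as a separate group. Each of the 6 groups had 3 libraries, 18 in all, from middle leaves of field-grown plants at 70 days. Both hybrids shared the male parent, all groups were untreated, and leaves of several plants of a plot were mixed for each sample. P-values measure only the spread between these samples, and the labels do not say whether replicate numbers mark the field blocks.

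An F1 hybrid carries 1 set of chromosomes from each parent, and a gene without interaction between the parental copies is usually found near the mean of the parents. Expression below both parents is called overdominant in the downward direction, or underdominant. Cultivated tobacco is an allotetraploid that arose from relatives of Nicotiana sylvestris and Nicotiana tomentosiformis, so many genes exist as near-identical copies, and reads can be split between such copies when they are counted. The identifiers give a scaffold number before the letter g and the position of the gene along that scaffold after it, in steps of 10. A scaffold is a stretch of assembled genome, so genes with the same scaffold number lie near each other. The deposited tables give identifiers only, the study names K+ genes and a few others by identifier but none of the 59, and a RefSeq gene table matched 0 identifiers. No function is therefore given for the 59 genes and leaf cell type markers could not be checked.

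The 18 libraries summed to 756861.83 to 818036.71 FPKM, with 37.72% to 44.03% of all genes listed at 0. Numbers of reads per gene were not used here, so no counting interval is given. In the G70 cross, 3 libraries stood apart from their groups on the first principal component of all genes (51.2% of the variance). H replicate 3 scored -75.9, against 66.6 and 65.8 for H replicates 1 and 2. HP1 replicate 1 scored 90.8, against -53.4 and -47.5, and HP2 replicate 1 scored 61.0, against -45.4 and -62.1. In the K326 cross, LP2 replicate 2 stood apart, where 27527 genes reached 1 FPKM, while the other 8 libraries of that cross had 31646 to 32935 such genes. On the first component of that cross (46.0% of the variance), LP2 replicate 2 scored 172, against -39.9 and 14.0 for LP2 replicates 1 and 3. The hybrid libraries were split as well, with -44.7 for L replicate 1, against 30.7 and 23.9 for L replicates 2 and 3. Counts of the K326 cross that rest on LP2 replicate 2 are also given without it, and the number of genes meeting the rule is given without the 3 libraries of the G70 cross.

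Summed over the 59 genes, the FPKM was 42.8, 40.6 and 42.9 in H replicates 1, 2 and 3. The sum was 676, 663 and 605 in HP1 and 544, 608 and 546 in HP2. Gene by gene, the H mean had a median of 0.566% of the parental mean, while the median over all 31794 genes at the floor was 96.8%. The H mean was below 1% of the parental mean for 33 genes, from 1% to 5% for 7, from 5% to 10% for 3, and 10% or more for 16. A total of 11 genes were listed at 0 in every H library, and 28 were above 0 in every H library. The parental mean of the genes had a median of 6.20 FPKM and a range from 0.927 to 80.6 FPKM. The 19 genes that kept 5% or more in H had a median parental mean of 4.99 FPKM, and the 40 genes below 5% had one of 6.73 FPKM.

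**Figure D1:**
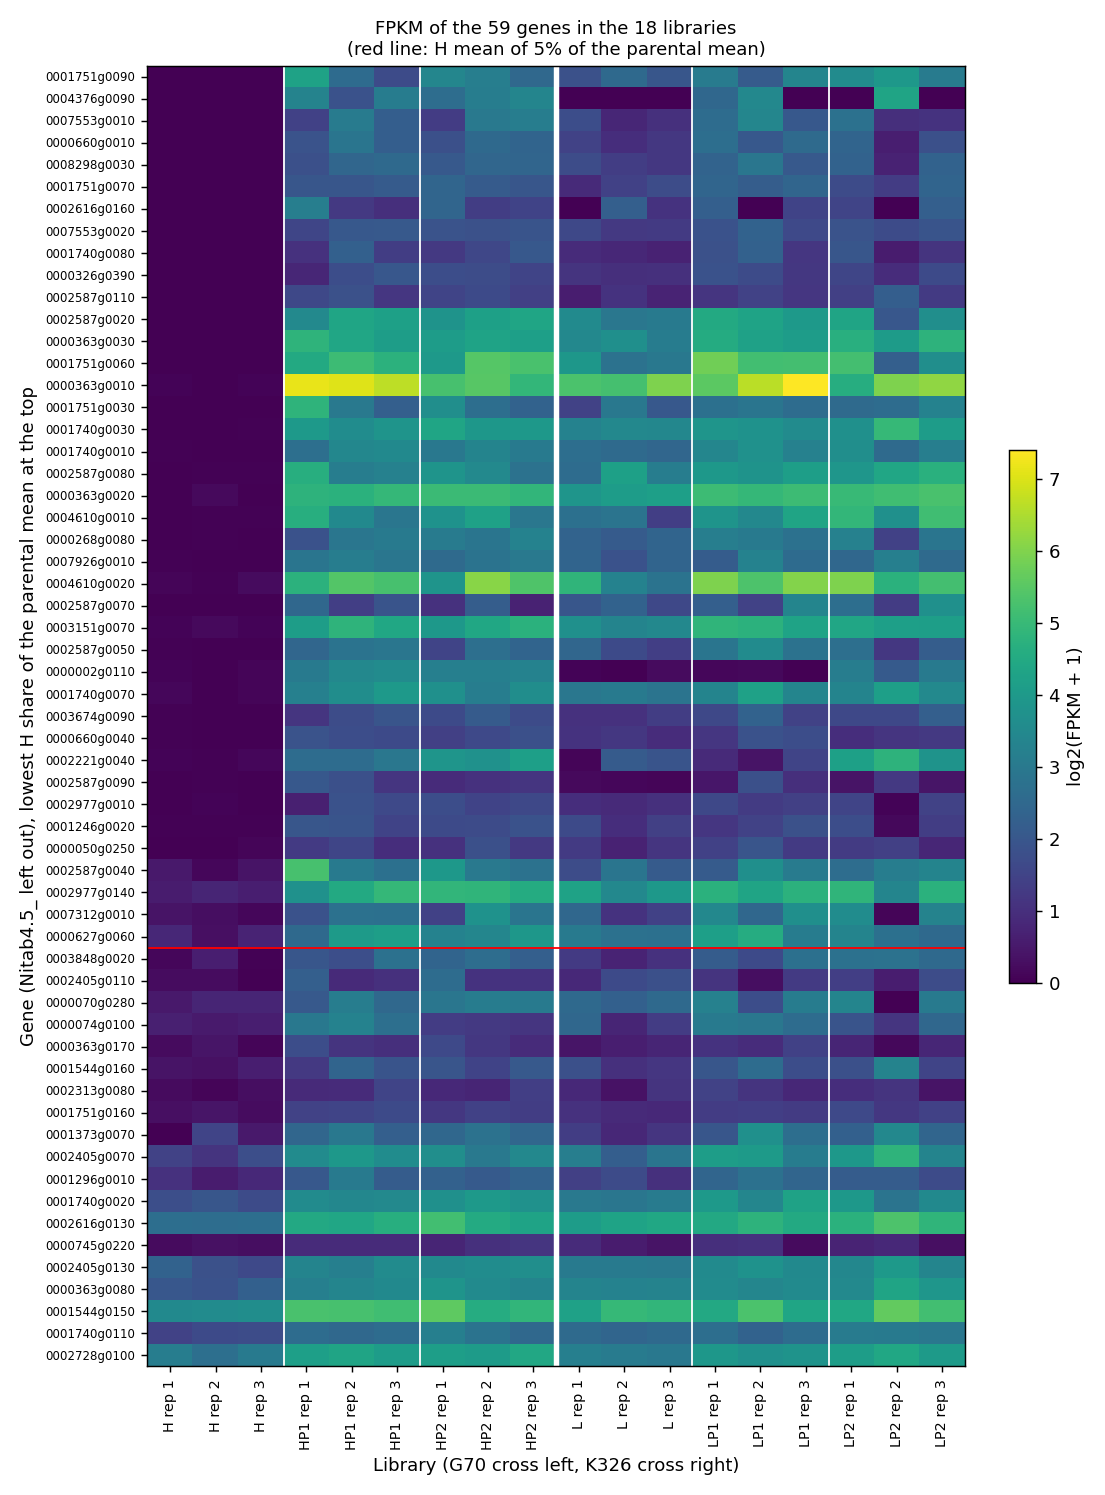
FPKM of the 59 genes (rows) in the 18 libraries (columns), as log2(FPKM + 1), with the G70 cross on the left and the K326 cross on the right of the thick white line. The red line separates the 40 genes with an H mean below 5% of the parental mean, above it, from the other 19, and the 3 H columns are dark in nearly every row above it while the 3 L columns are intermediate.

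Close to the limits of the rule, the genes graded into those that missed it. Just inside the fold were Nitab4.5_0001740g0110, Nitab4.5_0002728g0100 and Nitab4.5_0002405g0130, whose highest H value was 49.9%, 49.5% and 49.3% of the lowest parental value. Just outside it were Nitab4.5_0000113g0330, Nitab4.5_0000295g0170 and Nitab4.5_0000152g0230, at 50.8%, 51.4% and 51.7%. Just above the floor were Nitab4.5_0002977g0010, Nitab4.5_0002587g0070 and Nitab4.5_0000745g0220, with lowest parental values of 0.56, 0.62 and 0.69 FPKM. Just below it were Nitab4.5_0001751g0020, Nitab4.5_0000272g0130 and Nitab4.5_0000363g0040, at 0.40, 0.35 and 0.35 FPKM. Below the floor, 32 genes met the fold.

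The gene with the highest parental level was Nitab4.5_0000363g0010, the first gene of its scaffold. It had 0.05, 0 and 0.06 FPKM in H, against 141, 130.3 and 101 FPKM in HP1 and 37.4, 44.2 and 29.0 FPKM in HP2. Its 2 neighbours were equally low in H. Nitab4.5_0000363g0020 had 0, 0.15 and 0 FPKM in H, against 26.5, 25.3 and 29.4 FPKM in HP1 and 32.4, 31.9 and 28.6 FPKM in HP2. Nitab4.5_0000363g0030 had 0.02, 0 and 0 FPKM in H, against 27.0, 19.7 and 16.3 FPKM in HP1 and 16.01, 18.6 and 16.99 FPKM in HP2. The first gene differed between the parents, with HP1 above HP2 in every library, while the 2 neighbours overlapped between the parents.

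On scaffold 0004610, Nitab4.5_0004610g0020 had 0.07, 0.03 and 0.16 FPKM in H, against 25.98, 41.9 and 36.9 FPKM in HP1 and 13.2, 67.4 and 40.1 FPKM in HP2. Nitab4.5_0004610g0010 beside it had 0.01, 0.03 and 0.03 FPKM in H, against 24.2, 10.4 and 6.52 FPKM in HP1 and 12.7, 18.0 and 6.70 FPKM in HP2. Parental values of these 2 genes spread several-fold between libraries, and the H values lay far below all of them. Nitab4.5_0001751g0060 had 0.01, 0.01 and 0.02 FPKM in H, against 21.7, 33.1 and 26.2 FPKM in HP1 and 14.8, 43.1 and 37.7 FPKM in HP2. Nitab4.5_0003151g0070, alone on its scaffold among the 59, had 0.05, 0.14 and 0.06 FPKM in H, against 16.5, 27.5 and 20.2 FPKM in HP1 and 14.5, 20.4 and 25.8 FPKM in HP2. For both genes the parents overlapped.

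Other highly expressed members kept a measurable level in H. Nitab4.5_0001544g0150 had 10.5, 10.97 and 11.3 FPKM in H, against 38.3, 37.0 and 34.1 FPKM in HP1 and 46.1, 23.2 and 28.6 FPKM in HP2. Nitab4.5_0002616g0130 had 5.37, 5.32 and 5.43 FPKM in H, against 21.01, 19.9 and 23.97 FPKM in HP1 and 35.1, 22 and 18.6 FPKM in HP2. Nitab4.5_0002728g0100 had 7.81, 5.46 and 7.10 FPKM in H, against 17.3, 18.9 and 16.03 FPKM in HP1 and 16.7, 15.8 and 20.9 FPKM in HP2. The H libraries of the first 2 of these genes were close to each other, at 31.6% and 22.9% of the parental mean, and the third was at 38.6%. Nitab4.5_0002977g0140 was lower, with 0.47, 0.70 and 0.54 FPKM in H, against 12.5, 21.6 and 29.7 FPKM in HP1 and 28.1, 27.8 and 22.6 FPKM in HP2.

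The 11 genes listed at 0 in every H library had lowest parental values from 0.73 to 2.93 FPKM. The highest of these belonged to Nitab4.5_0001751g0070, with 2.94, 2.94 and 3.41 FPKM in HP1 and 4.37, 3.38 and 2.93 FPKM in HP2. Nitab4.5_0004376g0090 had 8.91, 2.64 and 7.56 FPKM in HP1 and 5.27, 7.90 and 9.39 FPKM in HP2. Nitab4.5_0000660g0010 had 2.69, 6.41 and 3.62 FPKM in HP1 and 2.50, 4.79 and 4.19 FPKM in HP2. The other 8 were Nitab4.5_0008298g0030, Nitab4.5_0001751g0090, Nitab4.5_0007553g0020, Nitab4.5_0007553g0010, Nitab4.5_0002587g0110, Nitab4.5_0001740g0080, Nitab4.5_0002616g0160 and Nitab4.5_0000326g0390. No fold is given for these genes, since a listed 0 in FPKM has no counting limit here.

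The rule set no limit on differences between the parents of the G70 cross. It did use the lowest parental value, which keeps out genes low in 1 parent. Likeness of the parents is therefore partly set by the rule. On the log2(FPKM + 1) scale, HP1 minus HP2 had a median of 0.00, and 56 of the 59 genes were within 1 of it. The share of all genes within 1 was not counted, so this is description only. All HP1 libraries lay above all HP2 libraries for 3 of the 59 genes, against 2.69% of the genes at the floor, and all HP2 libraries lay above all HP1 libraries for 2, against 5.32%. The largest difference was that of Nitab4.5_0000074g0100, with 6.86, 8.77 and 5.53 FPKM in HP1 and 1.5, 1.35 and 1.20 FPKM in HP2 (log2 difference 1.76). It had 0.57, 0.45 and 0.54 FPKM in H, below the lower parent. Nitab4.5_0002221g0040 differed in the other direction, with 5.17, 5.11 and 6.61 FPKM in HP1 and 13.5, 12.4 and 17.1 FPKM in HP2 (log2 difference -1.21), and it had 0.05, 0.04 and 0.09 FPKM in H. After Nitab4.5_0000074g0100 and Nitab4.5_0000363g0010 (1.73), the most positive differences were those of Nitab4.5_0002587g0090, Nitab4.5_0002587g0070 and Nitab4.5_0002587g0050, from 0.52 to 0.63, all on 1 scaffold. After Nitab4.5_0002221g0040, the most negative were those of Nitab4.5_0000268g0080, Nitab4.5_0000070g0280, Nitab4.5_0002977g0140 and Nitab4.5_0001740g0020, from -0.47 to -0.31.

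Members shared scaffolds. The 59 genes lay on 32 of the 12822 scaffolds of the table, and 38 of them (64.4%) lay on 11 scaffolds that held 2 or more. Scaffold 0002587 held 7, scaffold 0001740 held 6, scaffolds 0000363 and 0001751 held 5 each, and scaffold 0002405 held 3. The scaffolds 0000660, 0001544, 0002616, 0002977, 0004610 and 0007553 held 2 each, and 21 genes were alone. Genes on 1 scaffold are neighbours and are not independent of each other. On scaffolds 0002587, 0004610, 0007553 and 0000660, which held 13 of the genes, every gene that reached the floor was a member.

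Scaffold 0002587 carried 13 genes in the table, and its 7 members, numbered from 0020 to 0110, were its only genes at the floor. The most abundant, Nitab4.5_0002587g0020, had 0, 0.01 and 0 FPKM in H, against 10.3, 19.6 and 17.4 FPKM in HP1 and 12.9, 17.7 and 19.6 FPKM in HP2. Nitab4.5_0002587g0040 had 0.43, 0.09 and 0.30 FPKM in H, against 37.4, 7.10 and 5.71 FPKM in HP1 and 14.4, 6.94 and 5.95 FPKM in HP2. It was the highest of the 7 in H, at 2.12% of the parental mean, and HP1 replicate 1, a library that stood apart, was its highest parental library. Nitab4.5_0002587g0080 had 0, 0.03 and 0.03 FPKM in H, against 23.9, 7.79 and 8.58 FPKM in HP1 and 13.3, 10.3 and 5.97 FPKM in HP2. The other 4 genes had parental means from 1.67 to 4.75 FPKM and H means of at most 0.02 FPKM.

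On scaffold 0001740, 6 of the 7 genes at the floor were members, and their H level differed from gene to gene. Nitab4.5_0001740g0010, Nitab4.5_0001740g0030, Nitab4.5_0001740g0070 and Nitab4.5_0001740g0080 were at 0.123%, 0.0916%, 0.547% and 0% of the parental mean in H. Nitab4.5_0001740g0020, between the first 2 of them, had 2.44, 2.98 and 2.23 FPKM in H, against 11.01, 9.67 and 10.3 FPKM in HP1 and 12.2, 14.7 and 12.4 FPKM in HP2, or 21.8%. Nitab4.5_0001740g0110 had 1.76, 2.20 and 2.32 FPKM in H, against 5.09, 4.67 and 5.14 FPKM in HP1 and 8.23, 6.11 and 4.65 FPKM in HP2, or 37.1%. The gene between these stretches that was no member, Nitab4.5_0001740g0100, was at 102% of the parental mean in H. In gene order, Nitab4.5_0001740g0020 lay within the stretch of genes near 0 in H. Nitab4.5_0001740g0100 and Nitab4.5_0001740g0110 came after that stretch, with a measurable level.

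The 5 members of scaffold 0000363 lay between gene numbers 0010 and 0170 of its 33 genes. The genes 0010, 0020 and 0030 were at or below 0.172% of the parental mean in H, Nitab4.5_0000363g0080 was at 31.3% and Nitab4.5_0000363g0170 at 13.4%. The 13 other genes at the floor had a median of 85.1% in H. They ranged from 20.7% (Nitab4.5_0000363g0120) to 225% (Nitab4.5_0000363g0310), so the lowest of them was below 1 of the members. The largest of them, Nitab4.5_0000363g0260, averaged 355 FPKM in H and 414 FPKM in the parents. On scaffold 0001751, the members Nitab4.5_0001751g0030, Nitab4.5_0001751g0060, Nitab4.5_0001751g0070 and Nitab4.5_0001751g0090 were at or below 0.0678% in H and Nitab4.5_0001751g0160 was at 14.7%. Nitab4.5_0001751g0010, Nitab4.5_0001751g0080 and Nitab4.5_0001751g0130 on the same scaffold were no members and were at 95.3%, 102% and 72.8%.

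Scaffold 0002405 differed from these, since its 3 members all kept some expression in H. Nitab4.5_0002405g0070, Nitab4.5_0002405g0110 and Nitab4.5_0002405g0130 were at 16.5%, 5.71% and 28.3% of the parental mean. Both members of scaffold 0001544, Nitab4.5_0001544g0150 and Nitab4.5_0001544g0160, also stayed above 10%. Pairs on other scaffolds were mixed. Nitab4.5_0002616g0130 was at 22.9% and Nitab4.5_0002616g0160 at 0, Nitab4.5_0002977g0010 and Nitab4.5_0002977g0140 were at 1.21% and 2.40%, and Nitab4.5_0000660g0010 and Nitab4.5_0000660g0040 at 0 and 0.590%. Over the 11 shared scaffolds, the 38 members had a median of 0.256% in H, and the 31 other genes at the floor one of 81.1%. The members ranged up to 37.1% and the other genes from 20.7% to 225%, so the 2 sets overlapped. The 21 members alone on a scaffold had a median of 1.95%.

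**Figure D2:**
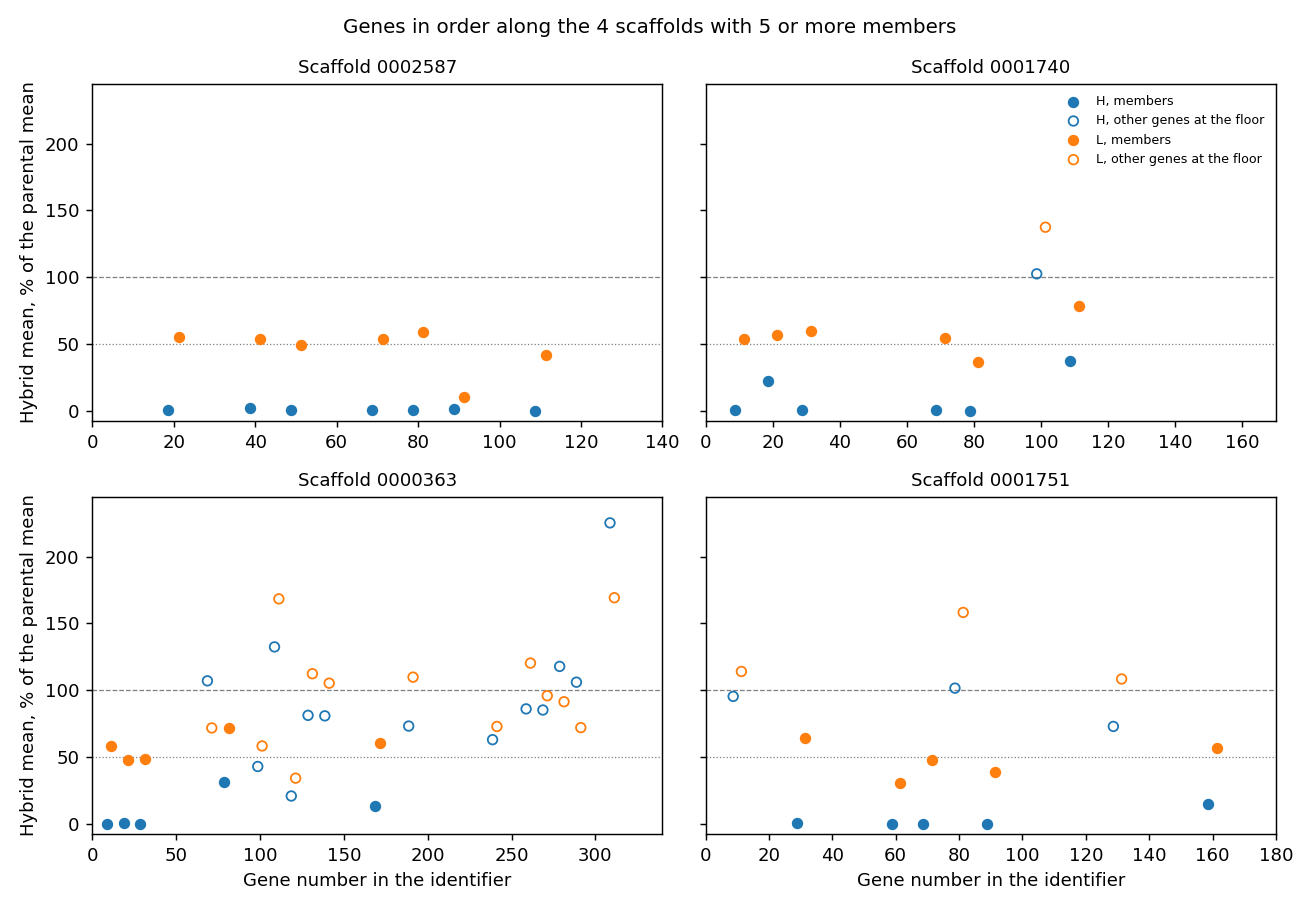
Hybrid mean as a percentage of the parental mean for each gene at the parental floor, in the order of the gene numbers, on the 4 scaffolds with 5 or more members. Blue marks H against the parents of the G70 cross, orange marks L against the parents of the K326 cross, and filled points are members. On scaffold 0002587 every H point is at or below 2.12% and the L points lie between 10.3% and 59.05%, and on scaffold 0000363 the 13 open points have medians of 85.1% in H and 95.8% in L.

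The K326 cross asks whether the same genes were low in the other GDH11 hybrid, in libraries that the rule did not use. The mean over both parents of that cross was 97.4% (median) of that in the G70 cross, with a range from 35.3% to 239% over the 59 genes. In all 6 parental libraries of the K326 cross, 45 of the 59 genes reached 0.5 FPKM. Summed over the 59 genes, L had 329, 308 and 316 FPKM, against 614, 658 and 688 FPKM in LP1 and 599, 583 and 609 FPKM in LP2. The 3 L libraries lay below all 6 parental libraries in this sum.

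Gene by gene, the L mean had a median of 53.6% of the parental mean, with quartiles of 40% and 63.6%. Over all 31794 genes at the floor, the median was 107%, with quartiles of 89.6% and 125%. The L mean was below both parental means for 55 of the 59 genes (93.2%), against 19.5% of the genes at the floor. It was below 75% of the parental mean for 52 genes (88.1%), against 13.0%, and between 40% and 60% for 25 genes (42.4%), against 4.57%. All 3 L libraries lay below all 6 parental libraries for 18 genes (30.5%), against 1.06%. Without LP2 replicate 2, the library that stood apart, these non-overlapping genes numbered 29, against 3.13% of the genes at the floor, and 54 genes had an L mean below both parental means, against 28.9%. Without that library, the median of the 59 genes was 51.4% of the parental mean, 51 genes were below 75% (15.8% of the genes at the floor) and 28 were between 40% and 60% (5.72%). With L replicate 1 left out in its place, 21 genes did not overlap, against 3.66% of the genes at the floor. The L mean was then below both parental means for 53, against 25.8%. The median was 50.9%, with 53 genes below 75% (18.5%) and 22 between 40% and 60% (6.34%).

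**Figure D3:**
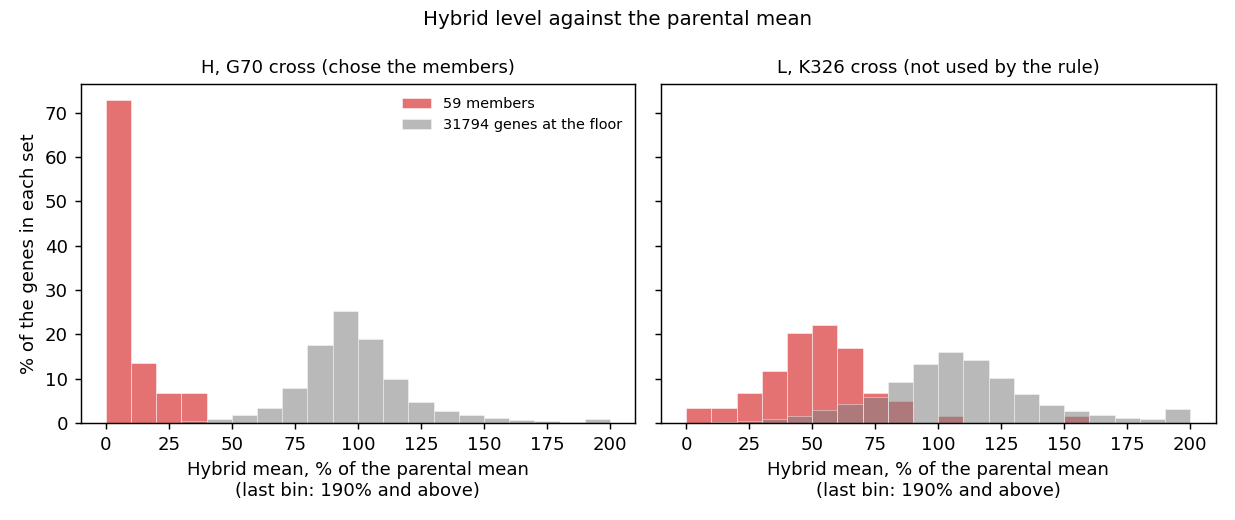
Share of genes (y axis, %) by hybrid mean as a percentage of the parental mean (x axis), for the 59 genes in red and all 31794 genes at the parental floor in grey, in H on the left and L on the right. The H panel shows the values that chose the genes, and in the L panel the red bars centre on the median of 53.6% while the grey bars centre on 107%.

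The low level was found in each of the 3 L libraries. The 59 genes had medians of 56.0%, 49.95% and 48.7% of the parental mean in L replicates 1, 2 and 3. They had 97.8%, 109% and 91.4% in LP1 and 97.9%, 81.5% and 99.5% in LP2. In LP2 replicate 2, the library at 81.5%, all genes at the floor were low as well, with a median of 63.4%. Over the same libraries, all genes at the floor had medians of 110%, 104% and 104% in L.

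**Figure D4:**
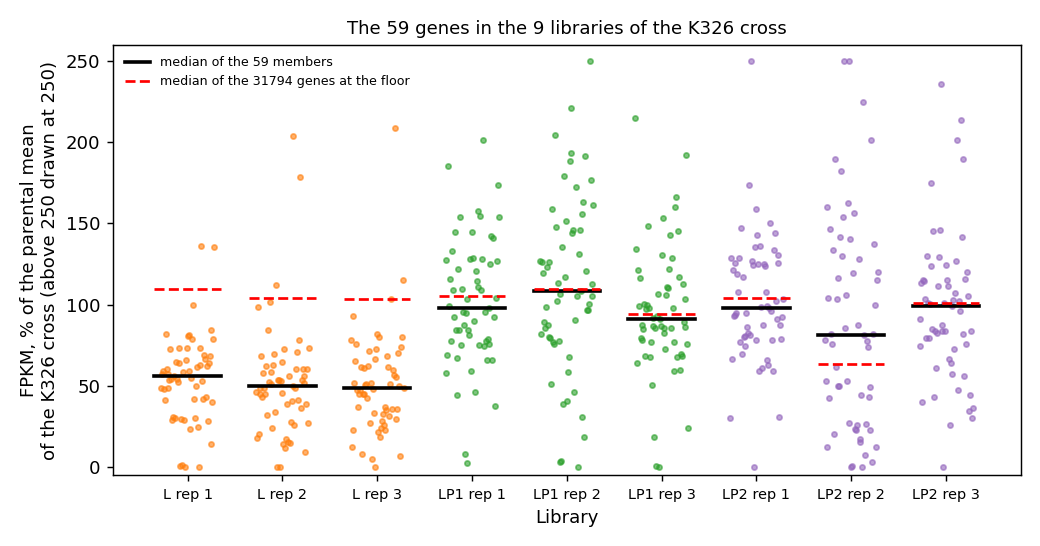
FPKM of each of the 59 genes as a percentage of its parental mean in the K326 cross (y axis), for the 9 libraries (x axis), with values above 250 drawn at 250. Black lines are medians of the 59 genes and dashed red lines are medians of all 31794 genes at the floor, and the black lines are at 56.0%, 49.95% and 48.7% in L and from 81.5% to 109% in LP1 and LP2.

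The same rule with L in place of H was met by 10 genes, 0.0343% of the 29127 genes at the floor in the K326 cross, on 10 different scaffolds. Of the 59 genes, 0 met it, and only the 45 at the floor there could have done so, so that this count of 0 is near the share of all genes and is no result about the 59. Without L replicate 1 it was met by 113 genes, 2 of them among the 59. The 40 genes below 5% of the parental mean in H had a median of 51.3% in L, and the 19 genes at 5% or more had one of 60.3%.

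Several genes with a high parental level had L libraries below both parents. Nitab4.5_0000363g0020 had 13.6, 16.1 and 17.1 FPKM in L, against 32.7, 29.4 and 32.7 FPKM in LP1 and 30.6, 34.2 and 37.9 FPKM in LP2. Nitab4.5_0000363g0030 had 10.1, 11.9 and 7.69 FPKM in L, against 22.5, 18.0 and 16.1 FPKM in LP1 and 24.5, 15.6 and 26.8 FPKM in LP2. For both genes the 3 L libraries lay below the 6 parental ones, at 47.5% and 48.1% of the parental mean. Nitab4.5_0003151g0070 had 12.1, 9.11 and 10.1 FPKM in L, against 28.1, 25.99 and 18.5 FPKM in LP1 and 20.04, 17.3 and 16.8 FPKM in LP2, and Nitab4.5_0001740g0030 had 8.67, 9.89 and 9.75 FPKM in L, against 13.4, 12.6 and 10.9 FPKM in LP1 and 12.3, 30.1 and 15.97 FPKM in LP2. The L libraries of these 2 genes did not overlap with the parents either.

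Other genes overlapped with the parents. Nitab4.5_0000363g0010 had 38.5, 36.4 and 61.6 FPKM in L, against 45.4, 99.8 and 169 FPKM in LP1 and 23.7, 61.3 and 71.8 FPKM in LP2. Nitab4.5_0002587g0020 had 10.8, 6.67 and 7.06 FPKM in L, against 21.4, 18.7 and 14.8 FPKM in LP1 and 19.04, 3.04 and 11.7 FPKM in LP2. Nitab4.5_0001751g0060 had 14.3, 5.95 and 6.79 FPKM in L, against 54.6, 35.2 and 35.7 FPKM in LP1 and 35.8, 3.75 and 11.8 FPKM in LP2. In the last 2 genes LP2 replicate 2 was the lowest parental library.

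Scaffold 0004610 was lower in L than the typical member. Nitab4.5_0004610g0010 had 5.67, 6.27 and 1.57 FPKM in L, against 13.2, 9.97 and 19.1 FPKM in LP1 and 28.8, 12.1 and 34.2 FPKM in LP2. Nitab4.5_0004610g0020 had 27.6, 8.81 and 6.02 FPKM in L, against 61.6, 39.5 and 64.8 FPKM in LP1 and 62.3, 25.6 and 36.0 FPKM in LP2. These genes were at 23.02% and 29.3% of the parental mean in L, and only the second overlapped with a parent. Nitab4.5_0002587g0090 was at 10.3%, with 0.14, 0.09 and 0.07 FPKM in L, against 0.37, 2.48 and 1.01 FPKM in LP1 and 0.30, 1.34 and 0.34 FPKM in LP2.

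A few genes departed from the pattern. Nitab4.5_0002405g0110 was the only one with an L mean above the parental mean, at 152%, with 0.80, 2.14 and 2.50 FPKM in L, against 1.17, 0.22 and 1.40 FPKM in LP1 and 1.60, 0.52 and 2.27 FPKM in LP2. Nitab4.5_0001246g0020 was at 100%, with 2.17, 0.96 and 1.65 FPKM in L. Nitab4.5_0002728g0100 kept to the pattern in L, at 49.1% of the parental mean, and stood out by its level of 38.6% in H. It had 8.22, 7.44 and 6.85 FPKM in L, against 14.1, 12.2 and 13.0 FPKM in LP1 and 16.5, 20.4 and 15.5 FPKM in LP2. Its L libraries overlapped with its H libraries. Nitab4.5_0004376g0090 was listed at 0 in every L library, but it was also at 0 in LP1 replicate 3 and in LP2 replicates 1 and 3, with 4.57 and 10.1 FPKM in LP1 replicates 1 and 2 and 19.1 FPKM in LP2 replicate 2.

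Nitab4.5_0000002g0110 and Nitab4.5_0002221g0040 were listed low in K326, a difference from G70 that was not tested. Nitab4.5_0000002g0110 had 0.05, 0 and 0.16 FPKM in L, against 0.09, 0.12 and 0.02 FPKM in LP1 and 7.82, 3.31 and 7.36 FPKM in LP2. In the G70 cross it had 0.05, 0 and 0.08 FPKM in H, against 7.21, 9.90 and 10.8 FPKM in HP1 and 8.23, 8.12 and 8.72 FPKM in HP2. It was near 0 in K326 and in both hybrids, and expressed in G70 and in both samplings of GDH11. Nitab4.5_0002221g0040 had 0.08, 3.40 and 2.76 FPKM in L, against 0.85, 0.30 and 1.86 FPKM in LP1 and 17.4, 26.7 and 13.0 FPKM in LP2, so that L overlapped with LP1 and lay below LP2.

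The differences in the K326 cross were tested with limma on log2(FPKM + 1), with adjusted p over the 33493 genes tested. Of the 59 genes, 57 were tested, and Nitab4.5_0000363g0170 and Nitab4.5_0000745g0220 were too low. A gene was called when its adjusted p was 0.05 or less and its log2 difference 1 or more in size. In L against LP1, 0 of the 57 were called lower and 0 higher, against 0.0418% and 0.128% of all genes tested. In L against LP2, 1 was called lower and 0 higher, against 0.0209% and 0.245%. Against the mid-parent, 0 were called lower and 0 higher, against 0.0179% and 0.188%. In LP1 against LP2, 1 was called lower and 0 higher, against 0.0567% and 0.143%. Few genes of any kind passed the adjusted threshold in this cross.

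Without the adjustment, at p of at most 0.05 in limma and the same log2 difference, 13 of the 57 were lower in L than in LP1, against 3.43% of all genes tested. In L against LP2, 12 were lower, against 1.03%, and 10 were lower in L than the mid-parent, against 1.36%. In LP1 against LP2, 3 were higher, against 4.16%, and 2 were lower, against 1.91%. At this threshold 0 of the 57 were higher in L than LP1, LP2 and the mid-parent, against 3.16%, 1.62% and 1.38% of all genes tested. Without LP2 replicate 2, 54 of the 59 genes were tested, and 15, 11 and 11 were lower in L than LP1, LP2 and the mid-parent, against 3.99%, 1.73% and 2.27% of all genes. The fit over all 18 libraries also takes its spread and its filter from the libraries that chose the genes. Its calls are therefore not independent of that choice. It called 0, 5 and 3 of the 59 genes lower in L against LP1, LP2 and the mid-parent. The shares of all genes tested were 0.0429%, 0.0658% and 0.0515%. In LP1 against LP2 that fit called 2 lower, against 0.117%.

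The median log2 difference of the 57 genes was -0.72 in L against LP1, -0.54 against LP2 and -0.69 against the mid-parent. The medians over all genes tested were 0.03, 0.22 and 0.13. A difference below 0 was found for 55, 54 and 54 of the 57 genes in these contrasts, against 47%, 27.4% and 33.7% of all genes tested. The shift of all genes against LP2 became -0.01 with median-of-ratios scaling, and that of the members was then -0.77. LP1 minus LP2 had a median of 0.10 for the members and 0.20 for all genes.

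The single call of L against LP2 was Nitab4.5_0000002g0110 (log2 difference -2.68, SE 0.28, limma adjusted p 0.00364), lower in 3 of 3 L libraries. The same gene was the call of LP1 against LP2 (log2 difference -2.67, SE 0.28, limma adjusted p 0.00549), while L minus LP1 was -0.01 on the log2 scale (SE 0.28, limma adjusted p 0.996). It was no longer called against LP2 without L replicate 2. Nitab4.5_0000002g0110 passed the filter on low values only through its 3 LP2 libraries, the group where it is high. Its calls against LP2 therefore rest on the same values that let it be tested. It was under the filter when any LP2 library was left out. Against the mid-parent, Nitab4.5_0000363g0020 had the lowest adjusted p (log2 difference -1.03, SE 0.18, limma adjusted p 0.0820) and missed the threshold, although it was lower in 3 of 3 L libraries. Next came Nitab4.5_0000002g0110 (log2 difference -1.34, SE 0.24, limma adjusted p 0.106) and Nitab4.5_0003848g0020 (log2 difference -1.42, SE 0.26, limma adjusted p 0.108). The last of these had 1.39, 0.68 and 1.07 FPKM in L, against 3.48, 2.14 and 5.62 FPKM in LP1 and 5.78, 5.90 and 4.76 FPKM in LP2.

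Other genes on the scaffolds of the members were set beside them in L. Members on shared scaffolds had a median of 54.9% of the parental mean in L and members alone on a scaffold one of 49.4%. The 31 other genes at the floor on the shared scaffolds had a median of 105% in L, with quartiles of 89.5% and 125%. On scaffold 0002587 the 7 members lay between 10.3% and 59.05% in L, with a median of 53.3%. On scaffold 0001740 the 6 members lay between 36.6% and 78.2%, while the gene that was no member was at 137%. On scaffold 0000363 the 5 members lay between 47.5% and 71.6%, and the 13 others had a median of 95.8%. Some other genes were low in L as well. Nitab4.5_0000363g0120 and Nitab4.5_0002405g0040, which were no members, were at 34.04% and 46.1%. On scaffold 0002728, which held 1 member, the 7 other genes at the floor had a median of 57.98%. On scaffold 0007312 the 2 others had a median of 56.9%. On scaffold 0001246 the 1 other gene was at 55.4%, while the member was at 100%. In H, the other genes at the floor on scaffolds 0002728 and 0007312 had medians of 48.8% and 50.3%. The other gene on scaffold 0001246 was at 43.8% in H.

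The study's K+ genes were no part of the set. Of 26 genes of K+ transport that the study names by identifier, 0 were members, against 0.186% of the genes at the floor. This count is near that share and is no result about the 26 genes. Also, 0 lay on a scaffold of a member and 0 had their highest H value below the lowest parental value. Shares of all genes were not counted for these, so they are description only. The H mean was below both parental means for 11 of the 26, against 40.8% of the genes at the floor, and their H mean had a median of 95.8% of the parental mean. The 3 nearest to the rule were TPC1 (Nitab4.5_0004344g0030), a vacuolar cation channel, KEA5 (Nitab4.5_0000072g0230), a K+ efflux antiporter, and GORK (Nitab4.5_0000777g0090), an outward K+ channel. Their highest H values were 138%, 145% and 152% of the lowest parental value. In limma, 25 of the 26 were tested in each cross, and 0 were called lower or higher in H against HP1 (0.194% of all genes tested lower and 0.294% higher) and H against HP2 (0.212% and 0.209%). Likewise 0 were called in L against LP1 and LP2, and at an unadjusted limma p of at most 0.05, whatever the size of the difference, 1, 0, 4 and 2 of the 25 passed in these 4 contrasts, against 4.14%, 3.69%, 12.6% and 6.58% of all genes tested.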

How the data were processed

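RNA of middle leaves was sequenced as paired ends in 18 libraries. The authors trimmed the reads, aligned them with TopHat2 to the K326 genome and quantified genes by RSEM. The submitters' processing notes name HISAT2, StringTie and RSEM, and versions are not given in the sources used here. The authors deposited FPKM for 69500 genes with decimals, although the table is described as raw counts, so no count model was used. FPKM depend on the transcript length used and on how reads of near-identical copies were shared out. Group tables of FPKM were not used here.

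The members and lists were chosen with earlier results of these data known. Parental means are means over the 6 parental libraries of a cross. Genes were tested in the 9 libraries of the K326 cross with limma 3.58.1 in R 4.3.3 on log2(FPKM + 1), which understates changes of low genes, with an intensity trend and Benjamini-Hochberg adjustment over all genes that reached 1 FPKM in 3 or more libraries. The mid-parent is the mean of both parents. No test was run on the values of members in the G70 cross. The fit was tested on simulated data. The K+ transport list was tested in the same way in both cross fits.

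Alternatives were a pseudocount of 0.1, no filter, median-of-ratios scaling, quantile normalization, other groupings of the fit, a replicate block, unadjusted p, other folds and floors of the rule, and leaving out each library. Members named were those with the highest parental level, the lowest ratio, a call in the K326 cross, a shared scaffold, the largest difference between HP1 and HP2, or a place next to the limits of the rule. Others named for departing from the pattern were chosen after their values were seen.

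Deviations from the group means were correlated between L and LP2 libraries of the same replicate number, with correlations of 0.545, 0.253 and 0.235, and between LP1 and LP2 libraries, with 0.251, 0.212 and 0.293. Between L and LP1 the correlations were 0.0923, -0.0525 and 0.0851. The replicate numbers come from the labels. Libraries of different replicate numbers were not correlated, and L replicate 1 and LP2 replicate 2 stood apart. The correlations therefore cannot show whether the libraries were paired.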

Additional observations from a re-analysis of the deposited data

How the results depend on the processing

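The rule gave 104 genes in the G70 cross with a fold of 1.5 in place of 2 and 60 to 83 with any 1 library left out. It gave 1076 without the libraries that stood apart (H replicate 3, HP1 replicate 1 and HP2 replicate 1), 59 of them members. A smaller fold or fewer libraries can only add genes to the rule in either cross. All 59 therefore stay in by construction, which shows no stability of the set. With median-of-ratios scaling, which can also remove genes, the rule gave 58 genes, 54 of them members. In the K326 cross the rule was met by 42 genes with a fold of 1.5, 16 with median-of-ratios scaling and 12 to 113 with 1 library left out (113 without L replicate 1, 29 without L replicate 2, 18 without LP1 replicate 2, 33 without LP2 replicate 2 and 16 without LP2 replicate 3). Of the members, 4, 1 and 0 to 2 met it there (2 without L replicate 1).

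At unadjusted p, 13, 12 and 10 members were lower in L than LP1, LP2 and the mid-parent. The shares of all genes tested were 3.43%, 1.03% and 1.36%. In LP1 against LP2, 3 were higher, against 4.16%, and 2 were lower, against 1.91%. The fit over all 18 libraries called 5 in L against LP2 (0.0658% of all genes tested), 3 against the mid-parent (0.0515%) and 2 in LP1 against LP2 (0.117%). That fit takes its spread and filter also from the libraries that chose the genes, so its calls are not independent of the choice. The fit of only the groups compared called 0 in L against LP2, against 0.00619% of all genes tested called lower. In LP1 against LP2 it called 2 lower, against 0.0247%. Against the mid-parent, 1 was called lower with no filter (0.0103%), with median-of-ratios scaling (0.0239%) and with quantile normalization (0.0537%). With 1 library left out, 0 to 1 were called in each contrast of L and 0 to 2 in LP1 against LP2, all lower. The shares of all genes called lower were 0% to 0.264% against LP1, 0% to 0.036% against LP2 and 0% to 0.072% against the mid-parent. In LP1 against LP2 they were 0.015% to 0.093%. Without L replicate 1, 1 was called lower in L against LP1 (0.223%). Without LP2 replicate 2, 1 was called lower against the mid-parent (0.072%).

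With the replicate block, the members called in the 4 contrasts stayed at 0, 1, 0 and 1. Over all genes tested, the calls went from 57, 89, 69 and 67 to 62, 59, 42 and 62. Member counts this small could hardly change, and the labels do not say whether replicate numbers mark pairs.

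For counts chosen after seeing the data, members with 3 L libraries below all parental ones numbered 18 to 29 with 1 library left out, against 1.2% to 3.66% of the genes at the floor. Members with an L mean below both parental means numbered 46 to 54, against 14.8% to 28.9%. Members below 75% of the parental mean numbered 51 to 53 and those from 40% to 60% numbered 21 to 28. At unadjusted p, 10 to 16, 10 to 13 and 8 to 13 members were lower in L than LP1, LP2 and the mid-parent with 1 library left out. The shares of all genes tested were 1.81% to 5.58%, 0.524% to 1.73% and 0.602% to 2.99%. The median log2 differences stayed below 0, from -0.76 to -0.71 against LP1, -0.74 to -0.49 against LP2 and -0.78 to -0.60 against the mid-parent. The causes of these shifts were not tested. FPKM without read numbers and 3 libraries per group limit what can be called.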

Other observations

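Some genes under the parental floor on the shared scaffolds were also near 0 in H. Of 18 such genes with a parental mean of 0.3 FPKM or more, 7 had an H mean below 5% of it. Nitab4.5_0001751g0020 was listed at 0 in every H and every L library. Its parental values were 0.89, 0.40 and 1.29 FPKM in HP1 and 1.41, 1.73 and 1.44 FPKM in HP2. In the K326 cross they were 4.84, 4.19 and 4.87 FPKM in LP1 and 0.75, 1.21 and 1.01 FPKM in LP2. Among genes meeting the fold it was the nearest below the floor, so it is not among the 59. Nitab4.5_0001751g0100 on the same scaffold was at 0 in every H library and had 1.04, 0.85 and 0.67 FPKM in L.

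Leaving out the 3 libraries of the G70 cross that stood apart added 1017 genes to the rule. How the added genes differ from the 59 in those 3 libraries is set by the way they were chosen. In the K326 cross, which had no part in the choice, the added genes had a median of 68.1% of the parental mean in L. Over all 31794 genes at the floor it was 107%. All 3 L libraries lay below all 6 parental libraries for 17 of the added genes (1.67%), against 1.06% of the genes at the floor. That count is near the share of all genes and is no result about the added genes. Why those libraries stood apart was not tested.

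The opposite rule, with the lowest H value above 2 times the highest parental value and at the floor or more, was met by 62 genes in the G70 cross.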
